A study of Mus musculus with 18 samples.

Results

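Malat1 and Neat1, 2 nuclear long noncoding RNAs (lncRNAs) encoded side by side on mouse chromosome 19, were followed through every library of an RNA sequencing study of bone marrow B cells. They were found by their symbols, as 2 of the 25965 gene rows that the study's count tables hold. Both were chosen from measured values of these libraries, namely their levels and how those moved with genotype, depth and makeup of the library. Those quantities are therefore given as a description, without a test.

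The cells came from femurs of C57BL/6 mice aged 12 to 16 months and were sorted as CD45.2+ B220+ Mac1-, a gate for B cells. The tested animals were Smchd1[del/del] Vav.Cre[T/+], with 5 female and 4 male libraries, and the controls were Smchd1[del/+] Vav.Cre[T/+], also with 5 female and 4 male libraries. Smchd1 encodes a chromatin protein known for its part in gene silencing, above all on the inactive X chromosome. The controls thus also carried the Cre transgene, driven by the Vav promoter that acts in blood-forming cells, and 1 deleted Smchd1 allele. They are called heterozygous (del/+) here, and no library without a deleted allele was analysed here. The labels number each library's animal separately.

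Malat1 RNA is an abundant, unspliced transcript that stays in the nucleus and gathers in nuclear speckles, bodies rich in splicing factors. Neat1 RNA is the scaffold of paraspeckles, nuclear bodies that form around its long form and contain proteins such as SFPQ and NONO. Neat1 also has a short form that ends at a poly(A) signal and carries an ordinary poly(A) tail. The main form of Malat1 and the long form of Neat1 instead end where RNase P, the enzyme that trims tRNA precursors, cuts them. Their 3′ ends are protected by a triple helix, in which an A-rich stretch of the RNA itself pairs with U-rich stretches upstream. The libraries were made from polyA RNA, so the ends of these RNAs bear on what such a library takes up.

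Total counts per library were between 9788112 and 29405395. Smchd1 checked the labels: it averaged 141 ± 17.6 CPM (depth-scaled counts, with TMM factors) in female del/del libraries and 248 ± 17.4 CPM in female heterozygous libraries (SD, n = 5 each). The male means were 177 ± 15.7 CPM for del/del and 298 ± 21.7 CPM for heterozygous libraries (SD, n = 4 each). The log2 fold changes were -0.82 in females and -0.74 in males, with adjusted p = 0.00119 and 0.00888 by edgeR's quasi-likelihood test. All 8 B cell markers listed, such as Pax5, Ebf1 and Cd79a, had counts, and their summed level was at least 6382 CPM in every library. Markers of other cell types had counts too. Over the libraries, 10 plasmacytoid dendritic cell markers summed to between 1650 and 3197 CPM, and 10 myeloid markers to between 634 and 3854 CPM.

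The 3′ ends of the transcripts in GENCODE release M21, on build GRCm38, are shown because they set apart the forms just described. The Malat1 stretch covers chr19:5795922-5796041, minus strand, bases 6632 to 6751 of the longest annotated Malat1 transcript, which has 6983 bases. The Neat1 long form ends at chr19:5824708-5824767, minus strand, the last 60 of its 20771 bases. Capitals mark a U-rich run of 16 bases and an A-rich run of 11 bases that both RNAs hold letter for letter. In the Malat1 transcript they are bases 6640 to 6655 and 6681 to 6691, and 292 annotated bases follow the second run.
Malat1: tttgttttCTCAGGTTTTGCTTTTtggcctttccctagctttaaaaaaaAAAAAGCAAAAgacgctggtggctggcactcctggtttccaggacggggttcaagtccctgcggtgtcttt
Neat1 long form: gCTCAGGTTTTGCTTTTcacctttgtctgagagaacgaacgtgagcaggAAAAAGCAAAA
In the Malat1 line, the bases after the last capitals begin the small tRNA-like RNA that RNase P is known to release from Malat1. In the Neat1 line, the A-rich run is the annotated end of the transcript. Of 141515 transcripts of at least 60 bases, 54 (0.0382%) had the A-rich run in their last 60 bases, and 1, the long form of Neat1 itself, had both runs there.

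The short form of Neat1, with 3004 bases, ends at chr19:5842307-5842366, minus strand. The annotated end of the Malat1 transcript, downstream of the RNase P cut, lies at chr19:5795690-5795749, minus strand. In both, capitals mark the letters AATAAA, the common poly(A) signal, which was searched on the transcript strand only.
Neat1 short form: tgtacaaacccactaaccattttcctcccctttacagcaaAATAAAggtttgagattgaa
Malat1 annotated end: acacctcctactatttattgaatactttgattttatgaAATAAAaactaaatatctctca
The same letters stood in the last 60 bases of 27.2% of all transcripts searched. The count tables give 1 row per gene, so forms of 1 gene were not told apart.

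Malat1 was among the rows with the most counts in these libraries, ranking between 11th and 397th of all rows by count, not scaled for length. Its genotypes overlapped in both sexes. In female del/del libraries it stood at 1425, 938, 1903, 1231 and 1870.2 CPM, against 1521, 811, 1225, 774 and 1049 CPM in female heterozygous libraries. The del/del libraries 3 and 5 lay above every heterozygous library, and the other 3 lay within the heterozygous range. The means were 1473 ± 415 CPM in female del/del and 1076 ± 309 CPM in female heterozygous libraries (SD, n = 5 each). The log2 fold change was 0.45 with a standard error (SE) of 0.22. In RNA of a whole sorted population, fewer cells of a type and less RNA per cell cannot be told apart.

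In male del/del libraries Malat1 stood at 995, 633, 902 and 772 CPM, against 1062, 378, 1051 and 681 CPM in male heterozygous libraries. All 4 del/del libraries lay within the heterozygous range, whose low end was 1 library. The means were 826 ± 157 CPM in male del/del and 793 ± 329 CPM in male heterozygous libraries (SD, n = 4 each), with a log2 fold change of 0.07 and an SE of 0.29. Leaving out heterozygous library 2 turned this value to -0.16, and leaving out del/del library 1 turned it to -0.03.

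Neat1 was spread more widely than Malat1. In female del/del libraries it stood at 321, 102, 264, 159 and 420.2 CPM, against 274, 93.5, 193.8, 104 and 278 CPM in female heterozygous libraries. Libraries 1 and 5 of the del/del group lay above every heterozygous library, and library 2, at 102 CPM, lay near the bottom of the heterozygous range. The means were 253 ± 127 CPM in female del/del and 188 ± 88.8 CPM in female heterozygous libraries (SD, n = 5 each), with a log2 fold change of 0.42 and an SE of 0.38.

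In male del/del libraries Neat1 stood at 218, 139.5, 334 and 116 CPM, against 262, 88.0, 288 and 75.6 CPM in male heterozygous libraries. Heterozygous libraries 1 and 3 lay above 3 of the del/del libraries and below the other, and heterozygous libraries 2 and 4 lay below all 4. The means were 201.8 ± 98.5 CPM in male del/del and 178 ± 112 CPM in male heterozygous libraries (SD, n = 4 each), with a log2 fold change of 0.19 and an SE of 0.47. The sign of this value rested on single libraries: it was -0.17 without del/del library 3, -0.04 without heterozygous library 2 and -0.06 without heterozygous library 4.

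**Figure D1:**
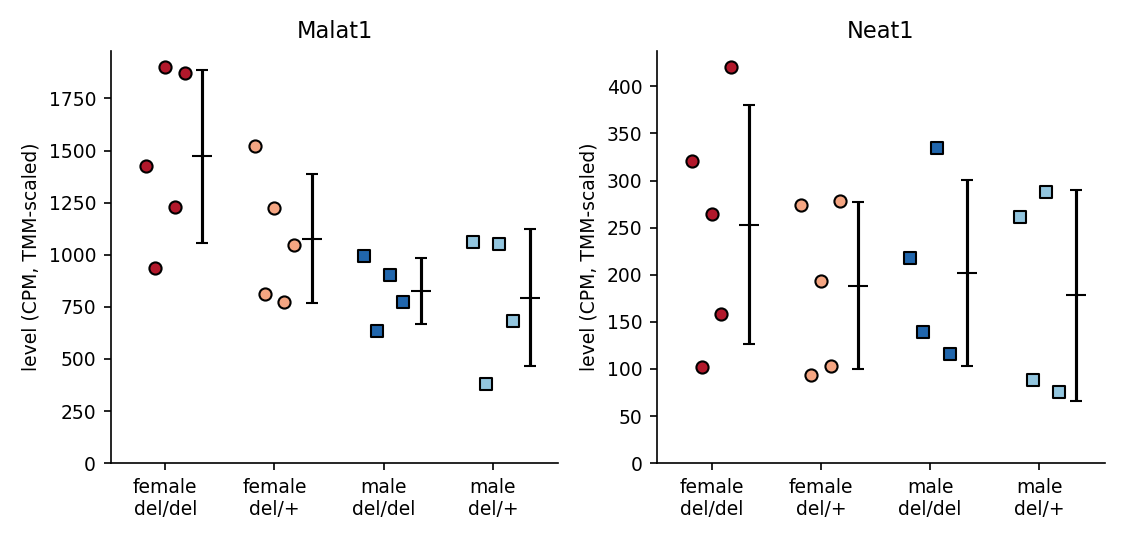
Level of Malat1 (left) and Neat1 (right) in each of the 18 libraries, in CPM on a linear axis from 0, by sex and genotype. Points are libraries, and the bars to their right are the group mean and SD (n = 5 in female and n = 4 in male groups); the genotypes overlap in both sexes for both RNAs.

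Neither RNA was called at an adjusted p under 0.05 in either sex. Over all genes, 34 of 13501 tested in females (0.252%) and 16 of 13413 in males (0.119%) were called, and since genotype was part of how the 2 RNAs were chosen, nothing is read from this count. The difference between the sexes' genotype effects, female minus male, was 0.39 (SE 0.38) for Malat1 and 0.24 (SE 0.66) for Neat1 on the log2 scale. With del/del and heterozygous animals of the nearest number in the labels paired, a fit added after seeing the data, the male values were 0.16 (SE 0.15) for Malat1 and 0.31 (SE 0.15) for Neat1. The female values were 0.45 (SE 0.13) and 0.40 (SE 0.09), and neither RNA was called. Neat1 was higher in the del/del animal of 5 of 5 female and 3 of 4 male pairs, and Malat1 in 4 of 5 and 2 of 4. How many of all genes had such pair counts was not computed. Genotype was part of how the 2 RNAs were chosen, and the pairs were added after seeing the data. Nothing is therefore read from the pair counts or from the smaller SEs. The labels do not say that near numbers mark shared litters or days. The authors' deposited table, whose header does not name the direction, lists log2 fold changes for Malat1 of 0.47 in females and 0.08 in males, and for Neat1 of 0.44 and 0.20. Ordered by group mean, Malat1 ran from female del/del through female heterozygous and male del/del to male heterozygous libraries, and each neighbouring pair overlapped in its libraries. For Neat1 the order was female del/del, male del/del, female heterozygous and male heterozygous, again with overlap between all neighbours.

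The spread between libraries of 1 group was large for genes of their abundance. The pooled SD within the 4 groups was 0.47 log2 units for Malat1, where the median of the 220 genes within 1 log2 unit of its mean level was 0.16. Of those 220 genes, 3 had an SD at least as large. For Neat1 the pooled SD was 0.82 log2 units, against a median of 0.14 among 2555 genes of like level, of which 3 were at least as variable. The fewest reads behind a value were 7559 for Malat1 and 955 for Neat1. Within a sex, the highest library exceeded the lowest 2.46-fold in females and 2.81-fold in males for Malat1, and 4.49-fold and 4.42-fold for Neat1.

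**Figure D2:**
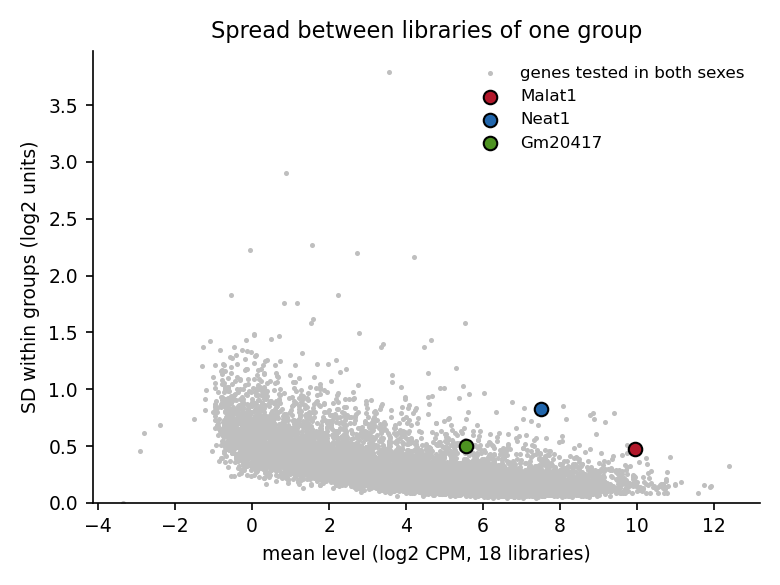
Pooled SD within the 4 sex-by-genotype groups (log2 units) against mean level over 18 libraries (log2 CPM) for genes tested in both sexes. Malat1 (SD 0.47) and Neat1 (SD 0.82) lie above nearly all genes of their level, as does Gm20417, a row inside Malat1.

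The 2 RNAs had higher and lower levels in much the same libraries, given here as a description without a test, since their levels were used to choose them. Within females the log2 levels had a Pearson r of 0.857 and a Spearman rho of 0.709 (n = 10). Without the 2 libraries farthest from the median Malat1 level, r was 0.869. Within males, r was 0.778 and rho 0.714 (n = 8), and r was 0.882 without the 2 farthest libraries. Leaving out any 1 library kept r between 0.814 and 0.933 in females and between 0.743 and 0.851 in males. Both values of a point come from the same library and share its depth and makeup.

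**Figure D3:**
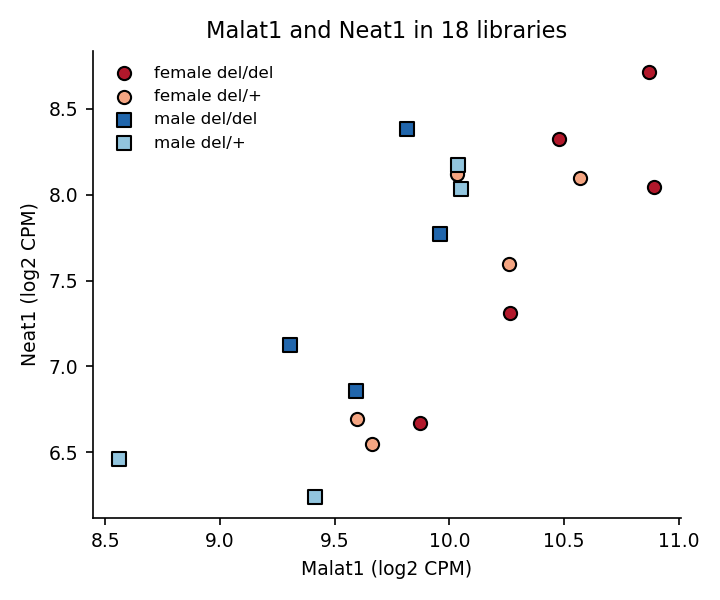
Neat1 against Malat1 (both log2 CPM) in 18 libraries, with circles for females and squares for males. The levels rise together within females (r = 0.857) and within males (r = 0.778), and at a given Neat1 level most male libraries lie to the left of the female ones.

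The proportion between them was less steady than this relation. Malat1 CPM divided by Neat1 CPM averaged 6.61 ± 2.12 in female del/del and 6.36 ± 1.87 in female heterozygous libraries (SD, n = 5 each). The male means were 4.62 ± 1.63 for del/del animals and 5.25 ± 2.52 for heterozygous animals (SD, n = 4 each). Over all libraries it ran between 2.70 in male del/del library 3 and 9.23 in female del/del library 2. In male heterozygous library 4, which had 75.6 CPM of Neat1, the ratio was 9.02.

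Per length, Malat1 had more counts than Neat1 in all 18 libraries. How fully each form was taken up into these polyA libraries was not measured, so this ranks counts and not RNA in the cell. Malat1 stood between 54.1 and 272 CPM per kilobase. Neat1 stood between 3.64 and 20.2 CPM per kilobase if its reads are spread over the long form, and between 25.2 and 139.9 CPM per kilobase if they all come from the short form. The per-length ratio of Malat1 to Neat1 was thus 8.03 to 27.4 with the long form and 1.16 to 3.97 with the short form. Which form the reads came from was not measured.

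Malat1 (ENSMUSG00000092341) is placed by the count tables at chr19:5795690-5802671 and Neat1 (ENSMUSG00000092274) at chr19:5824708-5845478, both on the minus strand and 22036 bases apart. Gm20417 is a further row on the opposite strand at chr19:5797562-5798549, wholly inside Malat1, where it covers 14.2% of the row. Its count was 4.06% to 5.66% of Malat1's in every library. Whether counting used strand is not given in the sources used here, and Gm20417 and Malat1 reads cannot be told apart. Of the rows within 250 kb, 31 were tested between genotypes in females and 30 in males, and edgeR, DESeq2 and limma-voom each called 0, beside 0.252% and 0.119% called among all genes by edgeR. At an unadjusted p under 0.05, edgeR had 1 row in females, Gm20417 itself, and 0 in males, beside 580 of 13501 and 448 of 13413 genes in all. With so low a share among all genes, these counts say nothing particular about the neighbours.

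Malat1 had a higher mean in female than in male libraries, again as a description. It averaged 1275 ± 404 CPM in females (SD, n = 10) and 809 ± 239 CPM in males (SD, n = 8), over both genotypes. The log2 difference was 0.64 (SE 0.19). Female libraries spanned 774 to 1903 CPM and male libraries 378 to 1062 CPM, so the sexes overlapped. With any 1 library left out the difference stayed between 0.53 and 0.72. For Neat1 the female average was 221 ± 109 CPM and the male average 190 ± 98.5 CPM, with a log2 difference of 0.21 (SE 0.33). Whether the sexes differ more in Malat1 than in Neat1 was not tested.

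Many genes differed between the sexes. Of 14017 genes tested, edgeR called 5868 (41.9%), 2967 higher and 2901 lower in females. The females and males were deposited in separate count tables, so sex and table cannot be told apart. The tables differed beyond the sex chromosomes in 4 autosomal rows that held 0 counts in all 10 female libraries and at least 10 in each male library, with 0 rows the other way. All 18 cell cycle genes were called higher in females (median log2 difference 0.64), among them Mki67, a marker of proliferating cells, at 1002 ± 170 CPM in females and 604 ± 100.1 CPM in males. Of 15 mature B cell genes, 14 were called lower in females (median -0.97 over the list), among them the MHC class II gene H2-Aa. Of 12 pro-B and pre-B cell genes, 7 were called higher in females, such as the transcription factor gene Sox4, and of 10 plasmacytoid dendritic cell genes 9 were called higher. The part of these shifts in the Malat1 difference was not tested.

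Among measures of the library itself, the share of counts in other lncRNA genes followed Neat1 most closely. This share was summed over 3258 rows that GENCODE M21 holds in its lncRNA set, without Malat1, Neat1, Gm20417 and Xist. It ranged only between 0.757% and 0.908% of a library's counts. Its lowest value was in male heterozygous library 4, which also had the least Neat1 (75.6 CPM), and its highest in female del/del library 5, which had the most Neat1 (420.2 CPM).

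Across libraries, log2 Neat1 and this share had an r of 0.954 in females (rho 0.903, n = 10) and 0.994 in males (rho 1, n = 8), as a description. Without the 2 libraries farthest from the median share, r was 0.963 in females and 0.994 in males. For Malat1, r was 0.893 in females (rho 0.879) and 0.809 in males (rho 0.714), and 0.823 and 0.745 without the 2 farthest libraries. With lincRNA and antisense rows alone, a class chosen after seeing the data, r was 0.926 and 0.968 for Neat1 and 0.872 and 0.817 for Malat1. The share and the level of a point come from 1 library and have its total in common.

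**Figure D4:**
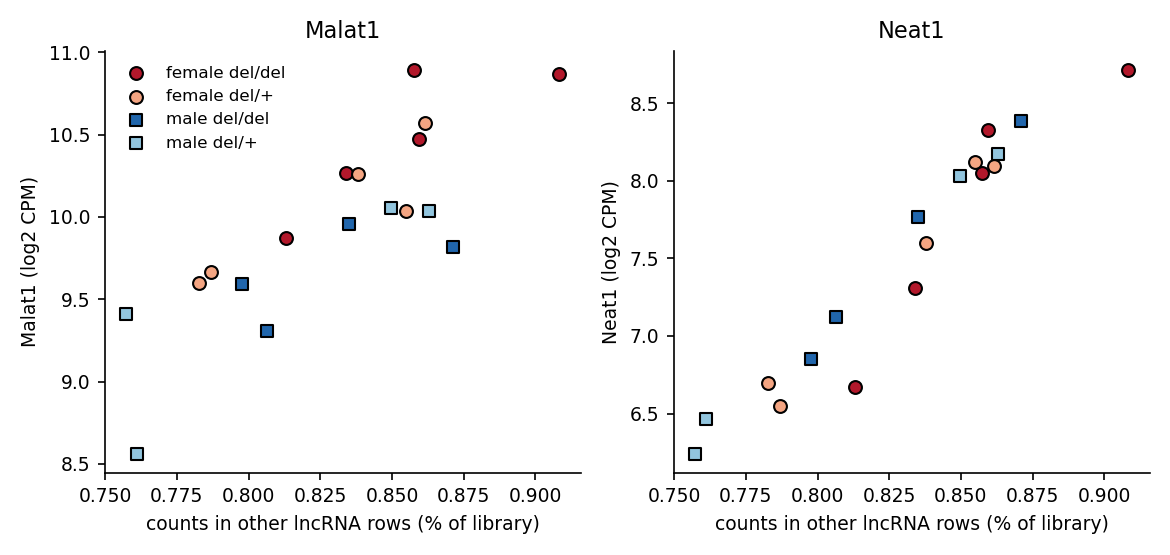
Malat1 (left) and Neat1 (right), in log2 CPM, against the share of each library's counts in other lncRNA rows (percent). Circles are female and squares male libraries; Neat1 lies close to 1 line over all 18 libraries (r = 0.954 in females and 0.994 in males), and Malat1 scatters more (r = 0.893 and 0.809).

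The shared movement did not extend to every abundant lncRNA. Among the 10 other lncRNA rows with the highest mean level, named here by that rank, r with Neat1 after centring on group means ran between -0.85 and 0.73 over 18 libraries, and 5 were positive. Gas5, the host transcript of a set of small nucleolar RNAs, had an r of 0.66 with Neat1 and 0.67 with Malat1. Tug1, a long intergenic RNA, had 0.35 and 0.50. The row Cct6a, whose identifier GENCODE M21 places in its lncRNA set although the symbol is that of a chaperonin subunit gene, had -0.85 and -0.80.

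Over all classes of rows, lncRNAs leaned towards the 2 RNAs and pseudogenes away from them. Of 737 lncRNA rows tested in both sexes, 72.0% had a positive r with Neat1 (median 0.27) and 70.8% with Malat1 (median 0.23), after centring on group means. Of 12033 protein-coding rows, 50.6% were positive with Neat1 (median 0.01) and 49.9% with Malat1 (median -0.00). Of 220 pseudogene rows, 55 were positive with Neat1 (median -0.40) and 60 with Malat1 (median -0.42). Rows of 1 library are not independent of each other, so these shares carry no test.

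Depth did not move alike with the 2 RNAs in both sexes. Log2 total counts had an r of 0.50 with Malat1 in females (rho 0.43) and -0.28 in males (rho -0.38), and of 0.43 (rho 0.18) and 0.02 (rho 0.26) with Neat1. Of the 24 measures set beside each RNA, the share of counts in 8 haemoglobin rows, a sign of red cell RNA in the sort, had some of the most negative values. It ranged between 0.00695% and 0.0963%. On the log2 scale it had an r of -0.76 with Malat1 in females (rho -0.61) and -0.93 in males (rho -0.90). Without the 2 farthest libraries these were -0.39 and -0.80, so the female relation rests largely on heterozygous libraries 2 and 4.

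For Neat1 the haemoglobin share gave -0.62 in females (rho -0.27) and -0.79 in males (rho -0.76), and -0.01 and -0.80 without the 2 farthest libraries. The female relation thus rests on those 2 libraries. Erythroid marker genes also averaged lower in del/del libraries, without being called and with overlap between the genotypes. All 8 tested of the 10 listed had a negative log2 fold change in both sexes, with a median of -0.95 in females and -0.75 in males, beside -0.00 and 0.00 over all genes. edgeR, DESeq2 and limma-voom called 0 of them in either sex, and at an unadjusted p under 0.05 edgeR had 7 in females and 1 in males, beside 580 of 13501 and 448 of 13413 genes in all. Their summed level was 80.0 to 162 CPM in female del/del and 90.3 to 485 CPM in female heterozygous libraries, and 139.7 to 259 CPM in male del/del and 111 to 871 CPM in male heterozygous libraries. Male heterozygous libraries 2 and 4, at 871 and 472 CPM, lay above every male del/del library. Male heterozygous libraries 1 and 3, at 111 and 170 CPM, lay below most of them, so the male difference rests on libraries 2 and 4. Markers of 1 library are not independent of each other. No listed marker with a row was at 0 in all libraries. Their part in the levels of the 2 RNAs was not tested.

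The cell cycle list ran against both RNAs. Its mean log2 level over 18 genes had an r of -0.79 with Malat1 in females (rho -0.73) and -0.52 in males (rho -0.45), and of -0.85 (rho -0.89) and -0.47 (rho -0.55) with Neat1. Without the 2 farthest libraries these were -0.81 and -0.73 for Malat1 and -0.78 and -0.65 for Neat1. Its summed level was 2894 to 5482 CPM in female del/del and 4296 to 5340 CPM in female heterozygous libraries, and 2261 to 3211 CPM in male del/del and 2624 to 3343 CPM in male heterozygous libraries. The share of counts in 85 ribosomal protein rows, between 1.25% and 1.90%, gave -0.63 in females (rho -0.68) and -0.50 in males (rho -0.71) with Malat1, and -0.62 (rho -0.66) and -0.65 (rho -0.67) with Neat1. The part of cell cycle or ribosomal protein RNA in the levels was not tested.

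**Figure D5:**
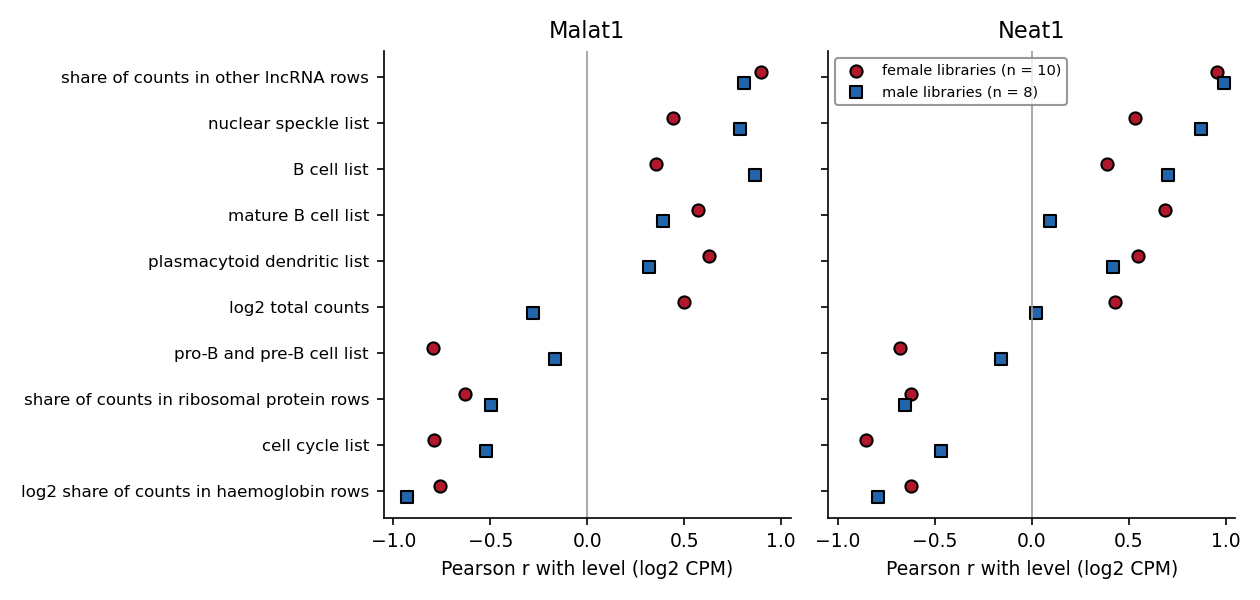
Pearson r, within each sex, of the log2 level of Malat1 (left) and Neat1 (right) with 10 of the 24 measures of a library, including mean log2 levels of gene lists. The other measures are not drawn, among them the paraspeckle protein list, whose r had opposite signs in the sexes. Circles are females (n = 10) and squares males (n = 8); the share of other lncRNA rows lies at 0.809 to 0.994, and haemoglobin, cell cycle and ribosomal protein measures lie below 0 in both sexes.

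The genes whose levels moved most like Malat1, by r after centring on the 4 group means over 18 libraries, were led by Gm20417 (0.97), the row inside it. Next of 8420 genes came Pfkfb2 (0.92), which makes the glycolytic regulator fructose 2,6-bisphosphate, Cars2 (0.92), a mitochondrial tRNA synthetase, and Arid3b (0.91), a DNA-binding protein. H2-M3, a nonclassical MHC class I gene, and Scai followed at 0.91 each. The lowest values were those of 1 of the 2 rows named Uck2 (-0.92), a uridine-cytidine kinase, Clta (-0.89), a clathrin light chain, and Eif3d (-0.89), a translation initiation factor subunit. Pfkfb2 spanned 21.9 to 43.4 CPM in females and 26.1 to 48.0 CPM in males, a narrower range than that of Malat1.

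For Neat1 the highest values were those of the zinc finger gene Zfp692 (0.97), Ppcdc (0.97), an enzyme of coenzyme A synthesis, the lincRNA row AI480526 (0.96), Flt3l (0.96), the ligand of the receptor FLT3, Prkab2 (0.96), a subunit of the energy sensor AMPK, and Cdk5 (0.95), a protein kinase. Zfp692 spanned 9.68 to 34.1 CPM in females and 10.5 to 38.2 CPM in males, a range of 3.53-fold and 3.63-fold. The lowest were the splicing factor gene Isy1 (-0.95), the translation initiation factor gene Eif3c (-0.95) and Prkar1a (-0.94), a regulatory subunit of protein kinase A. There were 351 genes with an r over 0.8 with Neat1 and 179 with Malat1. None of the 6 highest was shared between the 2 RNAs. Of 8420 genes, Neat1 was 116th in the order for Malat1 and Malat1 305th in that for Neat1, at an r of 0.82.

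For genes that act with these RNAs the counts of calls between genotypes were 0, which is close to the share called among all genes and says nothing particular about them. Of 16 paraspeckle protein genes, 20 nuclear speckle genes, 12 genes for RNase P subunits and other factors of the Malat1 3′ end, and 12 nuclear RNA decay genes, edgeR, DESeq2 and limma-voom each called 0 in either sex, beside 0.252% of all genes called by edgeR in females and 0.119% in males. At an unadjusted p under 0.05 edgeR also had 0 of them in either sex, beside 580 of 13501 genes in females and 448 of 13413 in males. The median log2 fold change of the paraspeckle genes was -0.09 in females and -0.07 in males, beside -0.00 and 0.00 over all genes. The r of their mean log2 level had opposite signs in the sexes. With Malat1 it was -0.67 in females (rho -0.60) and 0.60 in males (rho 0.62), or -0.26 and 0.30 without the 2 farthest libraries. With Neat1 it was -0.65 (rho -0.59) and 0.55 (rho 0.33), or -0.40 and 0.21 without them. Sfpq, a core paraspeckle protein gene, stood at 657 ± 70.3 CPM in female del/del and 702 ± 15.1 CPM in female heterozygous libraries (SD, n = 5 each), which is -0.10 (SE 0.08) in log2. The male means were 574 ± 33.5 CPM for del/del and 641 ± 53.3 CPM for heterozygous animals (SD, n = 4 each), with -0.15 (SE 0.08).

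Nuclear speckle genes had medians of -0.02 in females and 0.00 in males. The r of their mean log2 level with Malat1 was 0.44 in females (rho 0.35) and 0.79 in males (rho 0.79). Without the 2 farthest libraries it was -0.17 and 0.57. With Neat1 it was 0.53 (rho 0.38) and 0.87 (rho 0.88), or 0.06 and 0.67 without them. The female values thus rest on those 2 libraries. Srrm2, a large speckle scaffold protein gene, stood at 969 ± 123 CPM in female del/del and 851 ± 183 CPM in female heterozygous libraries, at 0.18 (SE 0.14). The genes for the Malat1 3′ end had medians of -0.03 and 0.02, and the decay genes -0.04 and -0.01. Exosc3, a subunit of the RNA exosome, stood at 47.3 ± 5.61 CPM in female del/del and 53.1 ± 5.73 CPM in female heterozygous libraries, at -0.17 (SE 0.10). Of 31 other lncRNA genes listed, 8 were tested in females and 6 in males, and 0 were called by edgeR, DESeq2 or limma-voom. At an unadjusted p under 0.05 edgeR had 0 in females and 1 in males, Gas5, at 219 ± 17.6 CPM in male del/del and 187 ± 25.9 CPM in male heterozygous libraries.

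The remaining lists, of cell types and cell states, also had 0 members called by edgeR in either sex, beside 0.252% and 0.119% of all genes. DESeq2 called 1 plasmacytoid dendritic cell gene in each sex, Il3ra, a subunit gene of the interleukin 3 receptor, and limma-voom called 0. Over all genes DESeq2 called more than edgeR, 92 in females and 49 in males. Il3ra stood at 21.7 ± 3.03 CPM in female del/del and 15.2 ± 1.55 CPM in female heterozygous libraries, and at 16.4 ± 1.43 CPM in male del/del and 10.9 ± 1.499 CPM in male heterozygous libraries. At an unadjusted p under 0.05, edgeR had 2 plasmacytoid dendritic genes and 2 p53 target genes in females. In males it had 4 plasmacytoid dendritic, 8 pro-B and pre-B cell, 2 T and NK cell, 2 immediate early and heat shock, and 1 p53 target gene. Over all genes, 580 of 13501 in females and 448 of 13413 in males passed the same limit. The myeloid, plasma cell, B cell, mature B cell and cell cycle lists had 0 in both sexes. In the cell cycle list, all 18 genes nonetheless had a negative log2 fold change in both sexes. Its median was -0.22 in females and -0.12 in males, beside -0.00 and 0.00 over all genes. Genes of 1 list are not independent of each other. The plasmacytoid dendritic list had a median log2 fold change of 0.40 in both sexes, and its r with Malat1 was 0.63 in females (rho 0.60) and 0.32 in males (rho 0.17), or 0.22 and 0.05 without the 2 farthest libraries. All 12 pro-B and pre-B cell genes had a negative log2 fold change in males (median -0.32) and 11 of 12 in females (median -0.13). The r of that list with Malat1 was -0.80 in females (rho -0.72) and -0.17 in males (rho 0.29), or -0.57 and -0.06 without the 2 farthest libraries, and with Neat1 it was -0.68 (rho -0.60) and -0.16 (rho -0.07), or -0.47 and 0.22 without them. Its summed level was 2993 to 4950.4 CPM in female del/del and 4267 to 4649.8 CPM in female heterozygous libraries, and 1942 to 2838 CPM in male del/del and 2802 to 3557 CPM in male heterozygous libraries. The part of the plasmacytoid dendritic, the pro-B and pre-B cell or the cell cycle list in the levels of the 2 RNAs was not tested.

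Between the sexes, 9 of 16 paraspeckle protein genes were called higher in females and 2 lower, beside 41.9% called among all genes. Pspc1, a core paraspeckle protein gene, stood at 83.8 ± 9.70 CPM in females and 69.4 ± 5.33 CPM in males (log2 difference 0.27, adjusted p = 0.00454 by edgeR). Of 20 nuclear speckle genes 3 were called higher, the splicing factor genes Srsf1, Srsf4 and Srsf2, and 0 lower. Of the 12 genes of the Malat1 3′ end, 2 were called higher and 3 lower. The RNase P subunit gene Pop4 stood at 34.9 ± 4.02 CPM in females and 28.7 ± 1.69 CPM in males (log2 difference 0.28, adjusted p = 0.00263), and Pop5 at 22.7 ± 2.01 CPM in females and 26.8 ± 1.79 CPM in males (log2 difference -0.24, adjusted p = 0.00503). Of 12 decay genes 5 were called higher and 1 lower.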

How the data were processed

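The authors deposited raw counts of reads per gene for every library, females and males apart. The submitters' processing notes name TopHat, Trim Galore, FastQC, bcl2fastq and edgeR 3.32.1, and the builds mm10 and GRCm38. How reads were counted, on which annotation and with which strand setting, is not given in the sources used here. The 4 columns of mean signal per genotype that the authors deposited were not used. Per the file headers, the authors' table of comparisons holds log2 fold changes and log2 CPM, an F score, and p-values per gene. Its log2 fold changes are quoted as such.

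Counts were tested in R 4.3.3 with edgeR 4.0.16: filterByExpr (minimum count 10, minimum total 15), TMM factors, the quasi-likelihood test within each sex and, for the sex difference, over 4 groups, with Benjamini-Hochberg adjustment over all genes tested and a threshold of 0.05. The code was tested on simulated data. CPM use TMM factors over all 18 libraries, and log2 CPM a prior count of 2. The 56 rows without an identifier held at most 0.0846% of a library's counts and stayed in. Alternatives were RLE factors, total counts, no filter, DESeq2 1.42.0, voom (limma 3.58.1), all libraries in 1 fit, leaving out each library and, added after seeing the data, a replicate block by nearest animal number.

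The 2 RNAs and the gene lists were chosen with earlier results of these data known. Genes were named by a rule: the 6 highest and 3 lowest in r among genes tested in both sexes with mean log2 CPM of at least 4, members of lists by smallest p (up to 4 a list), called rows within 250 kb, and Smchd1. The p-values set a difference between groups against the spread between animals of 1 group. For the sexes that difference includes any difference between the 2 count tables.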

Additional observations from a re-analysis of the deposited data

Results flagged for a closer look

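The ratio of Malat1 to Neat1 was 9.02 in male heterozygous library 4, which stood apart from the other 3 libraries of its group, at 3.65 to 4.29. In that library Neat1 was at 75.6 CPM, its lowest level of all, and Malat1 at 681 CPM. The level of each RNA and their ratio were looked at in this way in each of the 4 groups, 12 sets and 24 checks in all. With that many checks, chance alone can set a library apart.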

How the results depend on the processing

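Each comparison between genotypes has 4 or 5 animals a group, and the SE of its log2 fold change was 0.22 for Malat1 and 0.38 for Neat1 in females and 0.29 for Malat1 and 0.47 for Neat1 in males. The labels state no pairs. A replicate block by nearest animal number, added after seeing the data, called 23 genes in females and 13 in males. The deviations of such pairs from their genotype means correlated at -0.04 to 0.34 in females and 0.11 to 0.35 in males across 13183 genes, with 1 female pair below 0.1. Other couples of a del/del and a heterozygous animal were not compared in this way. These values therefore cannot show whether the paired animals belong together. The block changed no call of either RNA, but the SE of each log2 fold change was smaller with it. With the block the SE was 0.13 for Malat1 and 0.09 for Neat1 in females, and 0.15 for each in males. The number of genes called in females was 92 with DESeq2 and 58 with all 18 libraries in 1 fit, in place of 34, and 26 to 41 with 1 library left out. In males DESeq2 called 49 in place of 16, and leaving out 1 library gave 5 to 22, the lowest without heterozygous library 1 or del/del library 3. It gave 6 without del/del library 1, 9 without heterozygous library 4 and 10 without del/del library 4. Between the sexes 5181 to 6325 genes were called with 1 library left out. The cause of these shifts was not tested. Across the 6 other settings of the female fit, Malat1 stayed between 0.45 and 0.46 and Neat1 between 0.40 and 0.43 on the log2 scale. Across those of the male fit Malat1 stayed between 0.06 and 0.15 and Neat1 between 0.18 and 0.32. With 1 library left out, Malat1 ranged between 0.33 and 0.60 in females and -0.16 and 0.24 in males, and Neat1 between 0.15 and 0.62 and between -0.17 and 0.52. Neither RNA was called under any of these settings, and since genotype was part of how they were chosen, nothing is read from this. The sex difference in Malat1 stayed between 0.64 and 0.67 under the 5 other settings.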
